A study of Mus musculus with 12 samples.

Results

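The 9 genes described here encode subunits of the potassium channels that end the cardiac action potential. They are Kcnd2, Kcnd3, Kcnip2, Kcna5, Kcnv2, Kcnh2, Kcnq1, Kcnj2 and Kcnj11, taken by symbol, and not by a threshold on measured values, from a table of 27179 mouse genes. The list was chosen with earlier results of these data known. Bulk RNA sequencing of ribosomal RNA-depleted total RNA was made from frozen heart tissue of 12 mice aged 15 weeks. All mice had been exposed before birth, from embryonic day 0.5 to near the end of gestation, to filtered air or to diesel exhaust. They were raised in filtered air, were imaged by echocardiography at 11 weeks and underwent surgery at 12 weeks. Controls had sham surgery. The others had transverse aortic constriction (TAC), in which the aortic arch is tied over a 27-gauge needle, so that the left ventricle works against pressure. The design therefore had 4 groups of 3 libraries each: air sham, air TAC, diesel sham and diesel TAC. The labels name no genetic modification, strain, sex, litter, heart chamber or sequencing run. The p-values measure the spread between these animals, some of which may share a litter.

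A cardiac action potential ends when potassium leaves the cell through several channel types that open in sequence. In the mouse ventricle the transient outward current, carried by Kv4 channels, and fast and slowly inactivating delayed rectifiers do most of this work, whereas ERG (encoded by Kcnh2) and KvLQT1 (Kcnq1) are the main delayed rectifiers of large mammals. Inward rectifiers hold the resting potential, and ATP-sensitive channels couple it to metabolism. Lower potassium channel expression is a well-known part of the electrical remodelling of the overloaded heart.

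Library totals ran from 5534685 to 13265816 counts, so that 3 counts corresponded to between 0.218 and 0.501 CPM (counts scaled to a common library size with TMM factors). The lowest count of any member in any library was 15, for Kcnv2. All 9 members passed the filter on low counts, along with 13626 genes in all. Diesel sham 2 stood apart: it had the smallest total and 18.3% mitochondrially encoded counts, against 25.1% to 32.4% in the other libraries. The defining markers of ventricular cardiomyocytes were abundant in every group. Of 6 atrial markers only 1, Bmp10, was at 0 in all 4 groups. The summed level of the 6 ran from 15.6 to 43.2 CPM in air sham and 33.7 to 50.5 in air TAC. It ran from 23.4 to 34.1 CPM in diesel sham and 31.3 to 86.6 in diesel TAC. All 5 atrial markers tested had a positive log2 difference after TAC in both exposures. The summed level of the 15 ventricular cardiomyocyte markers ran from 69811 to 96807 CPM in air sham, 51557 to 83068 in air TAC, 74859 to 92076 in diesel sham and 52877 to 64083 in diesel TAC. The summed level of 12 fibroblast markers ran from 1743 to 1894 CPM in air sham, 2448 to 3948 in air TAC, 1642 to 2205 in diesel sham and 3491 to 4081 in diesel TAC. With exposures averaged, 6 of the 15 cardiomyocyte markers fell and 7 of the 12 fibroblast markers rose (edgeR quasi-likelihood test, adjusted p below 0.05). Fewer cells of a type, less RNA per cell and lower expression of the markers themselves cannot be told apart in bulk tissue. The part of cell makeup in the channel results was not tested. The rescaling given below cannot test it, because it depends on the markers' own expression.

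A subset of the channel genes was lower after TAC. Kcnv2 fell most, followed by Kcnd2, in both exposures. Kcnh2 was called lower in diesel and with exposures averaged, and Kcnip2 only with exposures averaged. For Kcna5 and Kcnq1 the 95% interval of each difference included 0. Each fold change is a log2 difference between group means with its standard error (SE), and each p is from edgeR's quasi-likelihood test, adjusted over all genes tested by the Benjamini-Hochberg method. After air exposure 2 of the 9 members passed the threshold of 0.05 and both were lower, where 0.22% of all genes were called lower. After diesel exposure 3 of 9 were called lower, against 1.49% of all genes. With exposures averaged 4 of 9 were called lower and 0 higher, against 3.91% of all genes called lower and 4.1% called higher. The members' median log2 difference was -0.55 in air, -0.52 in diesel and -0.48 on average, beside medians of 0.0051, 6.1e-04 and 0.0039 over all genes. The average uses the same libraries as the 2 comparisons within an exposure and is not a separate line of evidence. The members, and the other gene lists below, were chosen with earlier results of these data known. Counts set beside the share of all genes therefore describe the lists and do not test an excess.

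**Figure D1:**
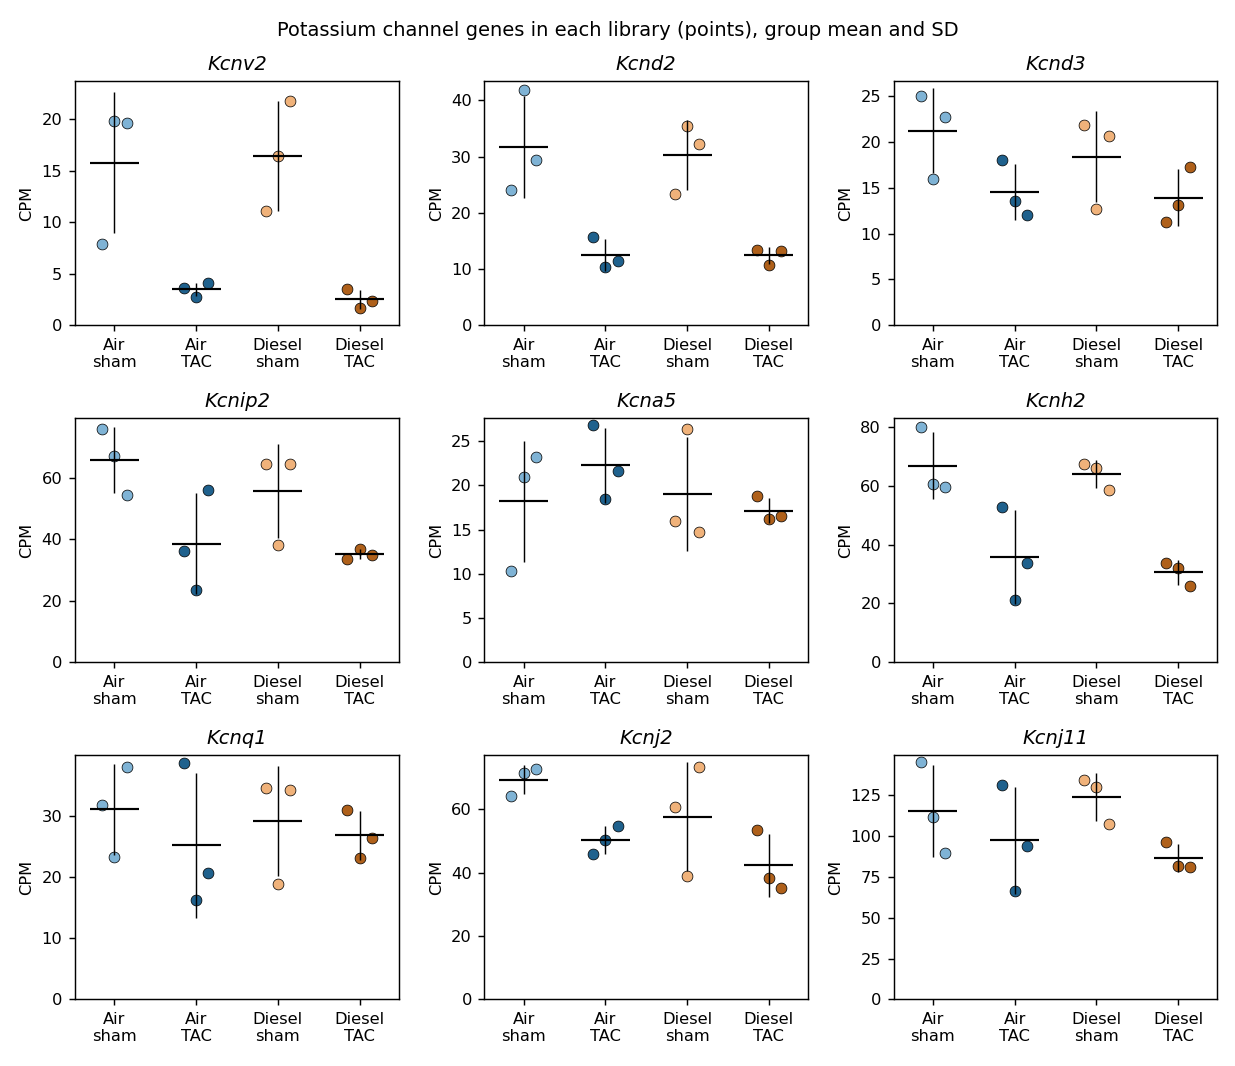
Normalised level (CPM, vertical axis from 0) of each member by group; points are libraries, horizontal lines group means and vertical lines the SD (n = 3). For Kcnv2, Kcnd2 and Kcnh2 every TAC library lies below every sham library.

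The transient outward channel is built from the Kv4 pore subunits Kcnd2 (Kv4.2) and Kcnd3 (Kv4.3) with the calcium-binding partner Kcnip2 (KChIP2), which raises Kv4 surface expression. The 300 bases around a transcription start of the 3 transient outward genes and of Kcnh2 (250 bases before it and 50 from it on) are printed because Kcnd2, Kcnip2 and Kcnh2 fell while Kcnd3, the close relative of Kcnd2, did not pass the test. They are from RefSeq, build GRCm38.p6, on the strand of the gene, with matches to 5 searched motifs in capitals. The windows lie at chr6:21215096-21215395 (Kcnd2, plus strand), chr3:105451640-105451939 (Kcnd3, plus strand), chr19:45816014-45816313 (Kcnip2, minus strand) and chr5:24329542-24329841 (Kcnh2, minus strand). The Kcnip2 and Kcnh2 windows are at internal starts, 359 and 22093 bases from the gene's outermost annotated start, and the Kcnd2 and Kcnd3 windows are at the outermost start.
Kcnd2: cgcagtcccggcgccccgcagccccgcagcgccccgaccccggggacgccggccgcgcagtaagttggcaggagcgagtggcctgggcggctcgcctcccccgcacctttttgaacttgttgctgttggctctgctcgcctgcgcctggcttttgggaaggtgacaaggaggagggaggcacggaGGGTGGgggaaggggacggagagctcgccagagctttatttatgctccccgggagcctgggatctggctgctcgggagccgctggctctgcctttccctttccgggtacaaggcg
Kcnd3: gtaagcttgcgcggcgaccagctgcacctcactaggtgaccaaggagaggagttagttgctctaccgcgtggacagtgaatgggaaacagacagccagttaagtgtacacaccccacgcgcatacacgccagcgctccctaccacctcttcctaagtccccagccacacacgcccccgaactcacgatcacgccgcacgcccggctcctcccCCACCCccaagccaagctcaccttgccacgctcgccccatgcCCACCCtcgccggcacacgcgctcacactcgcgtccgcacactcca
Kcnip2: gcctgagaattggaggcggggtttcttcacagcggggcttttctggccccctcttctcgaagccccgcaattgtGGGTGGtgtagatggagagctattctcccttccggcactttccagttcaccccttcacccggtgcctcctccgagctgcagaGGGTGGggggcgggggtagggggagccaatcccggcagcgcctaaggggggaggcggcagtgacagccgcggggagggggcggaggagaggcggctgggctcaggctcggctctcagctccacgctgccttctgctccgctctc
Kcnh2: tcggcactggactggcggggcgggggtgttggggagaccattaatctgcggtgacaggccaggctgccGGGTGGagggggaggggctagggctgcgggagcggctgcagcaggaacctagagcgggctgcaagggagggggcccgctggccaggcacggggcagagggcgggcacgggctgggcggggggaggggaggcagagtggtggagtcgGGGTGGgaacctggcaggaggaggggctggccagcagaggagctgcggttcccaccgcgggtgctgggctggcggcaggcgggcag
Both strands were searched for the KLF motif CCACCC, the E-box CACGTG, the NFAT motif GGAAAA, the Iroquois motif ACANNTGT and, for GATA factors, the letters AGATAA. No match overlaps another in the windows printed. Every capital run printed here is a KLF match. It lies at position -65 from the start in Kcnd2, at -38 and 5 in Kcnd3, at -176 and -94 in Kcnip2, and at -182 and -36 in Kcnh2. Of 32851 RefSeq promoter windows of this length, 31.5% hold a KLF match, and these windows are GC-rich, at 68.7% in Kcnd2, 64.0% in Kcnd3, 67.0% in Kcnip2 and 74.3% in Kcnh2 against a median of 52.7%. The motif is present in Kcnd2, Kcnip2 and Kcnh2, which were called lower with exposures averaged, and in Kcnd3, which was not called. The averaged log2 difference was -0.48 ± 0.18 (SE) for Kcnd3 and -0.72 ± 0.18 for Kcnip2, so Kcnd3 is not shown to be unchanged. The part of the motif in these differences was not tested. Of the 6 members with a window, Kcna5 also holds a KLF match, at -161, and an NFAT match at -30, and Kcnj2 holds an E-box match at -84. E-box, GATA, NFAT and Iroquois matches occur in 7.2%, 11.2%, 23.4% and 7.4% of all windows.

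Kcnd2 lies on chr6:21215346-21729805 (GRCm38, plus strand). Its level was 24.1, 41.9 and 29.4 CPM in air sham and 15.7, 10.3 and 11.4 in air TAC. It was 23.4, 35.4 and 32.2 CPM in diesel sham and 13.4, 10.7 and 13.1 in diesel TAC. All 6 TAC libraries were below all 6 sham libraries. Kcnd2 fell by 1.35 ± 0.25 on the log2 scale in air (2.54-fold lower, adjusted p = 0.00636) and by 1.28 ± 0.24 in diesel (2.43-fold lower, adjusted p = 0.00411). On average it was 2.49-fold lower (log2 difference -1.31 ± 0.17, adjusted p = 3.83e-05). The call in air was lost without air sham 2 (adjusted p = 0.0595) and without air TAC 2 (0.0750), whereas the average was called in all 12 fits that left out 1 library.

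Kcnd3 (chr3:105451890-105674002, plus strand) changed less. It measured 25.0, 16.0 and 22.7 CPM in air sham, 18.0, 13.5 and 12.1 in air TAC, 21.8, 12.7 and 20.6 in diesel sham, and 11.2, 13.2 and 17.3 in diesel TAC. Sham and TAC libraries overlapped in both exposures. The log2 difference was -0.55 ± 0.26 in air (adjusted p = 0.442), -0.41 ± 0.26 in diesel (0.474) and -0.48 ± 0.18 on average (0.123). Diesel sham 2 was its lowest sham library, and without it the average difference was -0.58 and passed the threshold (adjusted p = 0.0482). This was the only 1 of the 12 fits without a library to pass, and the highest adjusted p was 0.254, without diesel sham 1. A noncoding antisense gene, Kcnd3os, overlaps 165 exonic bases of Kcnd3 (1.72%), and reads there cannot be assigned because no source used here gives the strand setting of the counting.

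The ratio of Kcnd2 to Kcnd3 counts within a library does not depend on library scaling. It ran from 0.966 to 2.61 in air sham and from 1.07 to 2.78 in diesel sham, against 0.760 to 0.941 in air TAC and 0.759 to 1.19 in diesel TAC. The highest ratios were in air sham 2 and diesel sham 2, and sham and TAC ranges overlapped in diesel but not in air. The mean log2 ratio was lower after TAC by 0.79 in air and 0.88 in diesel. The averaged difference was -0.84 (exact permutation of surgery labels within exposure, two-sided p = 0.02, adjusted over 5 ratios 0.0333; the 400 arrangements allow no p below 0.005). The adjusted p rose to 0.0583 without diesel sham 2, 0.0750 without air TAC 2 and 0.0667 without diesel TAC 2 or diesel TAC 3. Leaving out a library also leaves fewer arrangements, so such p-values are coarser. The ratios here and below use the same libraries as the tests of single genes. Their genes are members chosen with earlier results known, so the ratios are not a separate line of evidence.

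Kcnip2 (chr19:45792346-45816422, minus strand) measured 75.9, 67.1 and 54.4 CPM in air sham and 36.1, 23.4 and 56.2 in air TAC. It measured 64.3, 38.1 and 64.5 CPM in diesel sham and 33.7, 36.9 and 34.9 in diesel TAC. Air TAC 3 lay within the sham range, and diesel sham 2 lay just above the diesel TAC libraries. Kcnip2 did not pass within air (log2 difference -0.77 ± 0.26, adjusted p = 0.221) or within diesel (-0.66 ± 0.26, 0.192). In air 1 of the 12 fits without a library passed (0.0350 without air TAC 3), and the highest adjusted p was 0.654, without air TAC 2. Kcnip2 fell by 0.72 ± 0.18 on average (1.64-fold lower, adjusted p = 0.0194). That call was lost in 4 of 12 fits, without air sham 1 (0.0570), diesel sham 1 (0.0516), diesel sham 3 (0.0552) or diesel TAC 1 (0.0509). Without diesel sham 2 the fall was 0.82 (adjusted p = 0.00558). The ratio of Kcnip2 to Kcnd2 was not shown to change (averaged log2 difference 0.57, exact permutation p = 0.11, adjusted 0.138).

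Kcnv2 (chr19:27322061-27337179, plus strand) encodes Kv8.2, a subunit that forms no channel alone and joins other pore subunits to alter their gating. It measured 7.83, 19.8 and 19.6 CPM in air sham and 3.57, 2.76 and 4.06 in air TAC. It measured 11.1, 16.4 and 21.8 CPM in diesel sham and 3.48, 1.67 and 2.39 in diesel TAC. The highest TAC library, air TAC 3, was below the lowest sham library, air sham 1. Group means were 15.8 ± 6.87 CPM (SD, n = 3) in air sham, 3.46 ± 0.659 in air TAC, 16.4 ± 5.34 in diesel sham and 2.51 ± 0.911 in diesel TAC.

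Kcnv2 fell by 2.17 ± 0.38 on the log2 scale in air (4.50-fold lower, adjusted p = 0.00532) and by 2.67 ± 0.38 in diesel (6.38-fold lower, adjusted p = 2.45e-04). The averaged fall was 2.42 ± 0.27 (5.36-fold lower, adjusted p = 5.63e-06), the largest fall of the 9 members, and it was called in all 12 fits without a library. In air the call, but not the size of the fall, was lost without air TAC 2 (adjusted p = 0.0542) and with limma-voom (0.0778); the log2 difference stayed between -2.50 and -1.96 in the 12 fits without a library.

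**Figure D2:**
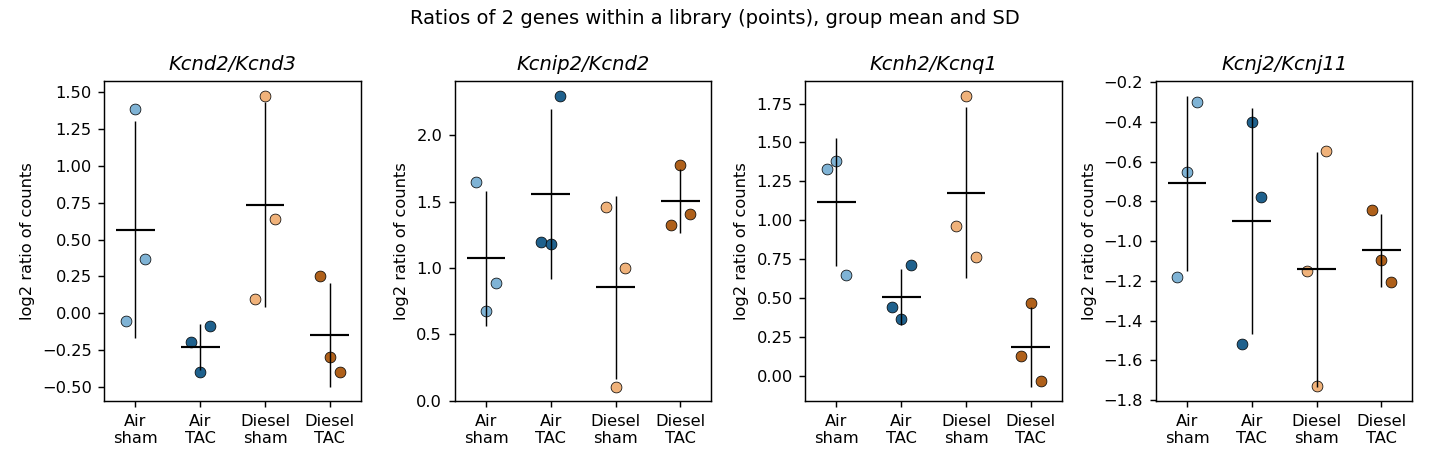
Log2 ratio of the counts of 2 genes within each library, for 4 pairs, by group; points are libraries, horizontal lines group means and vertical lines the SD (n = 3). The Kcnd2 to Kcnd3 ratios of air sham lie above those of air TAC, whereas sham and TAC ratios of Kcnj2 to Kcnj11 overlap in both exposures.

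Kcna5 (chr6:126532551-126535555, minus strand) encodes Kv1.5, a pore subunit of the ultrarapid delayed rectifier. Its group means were 18.2 ± 6.86 CPM in air sham, 22.3 ± 4.22 in air TAC, 19.0 ± 6.42 in diesel sham and 17.2 ± 1.42 in diesel TAC (SD, n = 3). The individual libraries ran from 10.4 to 26.8 CPM, and sham and TAC values overlapped. The averaged log2 difference was 0.08 ± 0.20 (95% interval -0.33 to 0.49, adjusted p = 0.870), with 0.30 ± 0.28 in air and -0.14 ± 0.28 in diesel.

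Kcnh2 (chr5:24319589-24351684, minus strand) encodes ERG, the pore of the rapid delayed rectifier and a well-known site of drug block. It measured 80.0, 60.8 and 59.7 CPM in air sham and 52.6, 21.1 and 33.9 in air TAC. It measured 67.5, 66.0 and 58.4 CPM in diesel sham and 33.8, 32.0 and 25.9 in diesel TAC. No TAC library reached the lowest sham library. Kcnh2 passed within diesel (2.09-fold lower, log2 difference -1.07 ± 0.24, adjusted p = 0.0166) and on average (1.97-fold lower, -0.98 ± 0.17, adjusted p = 9.28e-04), but not within air (-0.90 ± 0.24, adjusted p = 0.0979). The call in diesel was lost without diesel sham 1 (0.0625), diesel sham 2 (0.0509), diesel TAC 2 (0.0574) or diesel TAC 3 (0.106). The difference in air passed in 2 of 7 changes of method, DESeq2 (0.0434) and no filter (0.00799). Its highest adjusted p among them was 0.229, with only the libraries compared. Of the 12 fits without a library 1 passed, without air TAC 1 (0.00602). Without air TAC 2 the adjusted p was 0.421. The interaction of exposure and surgery was -0.17 ± 0.34 and did not pass, so the fall is not shown to differ between exposures.

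Kcnq1 (chr7:143106877-143427050, plus strand) encodes KvLQT1, the pore of the slow delayed rectifier, which works with the accessory subunit Kcne1. It measured between 16.3 and 38.7 CPM over the 12 libraries, with group means of 31.1 in air sham, 25.2 in air TAC, 29.3 in diesel sham and 26.8 in diesel TAC. The averaged log2 difference was -0.21 ± 0.21 (adjusted p = 0.621). The noncoding antisense gene Kcnq1ot1 overlaps 121 of its exonic bases (2.96%), so some counts there may be of either strand. Kcne1 had an averaged difference of 0.24 ± 0.40 and did not pass. The ratio of Kcnh2 to Kcnq1 fell by 0.80 on the log2 scale (exact permutation p = 0.01, adjusted 0.025), by 0.61 in air and 0.99 in diesel, with the lowest sham value below the highest TAC value. Without air TAC 2, diesel sham 2 or diesel TAC 3, each with fewer arrangements to permute, the adjusted p of this ratio was 0.05.

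Kcnj2 (chr11:111066164-111076825, plus strand) encodes Kir2.1, the main pore of the inward rectifier that sets the resting potential. It measured 64.3, 71.4 and 72.7 CPM in air sham, 46.0, 50.3 and 54.8 in air TAC, 60.6, 39.1 and 73.3 in diesel sham, and 53.6, 38.4 and 35.1 in diesel TAC. Air sham and air TAC did not overlap, whereas diesel sham 2 lay within the diesel TAC range. The log2 difference was -0.46 ± 0.21 in air (adjusted p = 0.402), -0.44 ± 0.21 in diesel (0.296) and -0.45 ± 0.15 on average (0.0617). Without diesel sham 2 the averaged difference was -0.56 and passed (adjusted p = 0.0109), as it did without diesel TAC 1 (0.0278) and without the filter (0.0290). Only these 2 of the 12 fits without a library passed, and the highest adjusted p was 0.179, without diesel sham 3. Kcnj12 (Kir2.2), a second pore of the same current, had an averaged difference of -0.43 ± 0.19 (adjusted p = 0.193).

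Kcnj11 (chr7:46097123-46100952, minus strand) encodes Kir6.2, the pore of the ATP-sensitive channel, which assembles with a sulfonylurea receptor. Its group means were 115.7 ± 28.2 CPM in air sham, 97.3 ± 32.7 in air TAC, 123.9 ± 14.6 in diesel sham and 86.4 ± 8.58 in diesel TAC (SD, n = 3). In diesel the TAC libraries were all below the sham libraries, and in air they overlapped. No comparison passed (averaged log2 difference -0.39 ± 0.15, adjusted p = 0.136). Of the 12 fits without a library 1 passed on average, without air TAC 1 (0.0242), and the highest adjusted p was 0.3315, without air TAC 2. Abcc9, the receptor SUR2 of the cardiac channel, fell by 0.60 ± 0.12 on average (adjusted p = 0.00411) and by 0.74 ± 0.18 in diesel (0.0212), and Kcnj8 (Kir6.1) had an averaged difference of 0.29 ± 0.14 (0.238). The ratio of Kcnj2 to Kcnj11 differed by -0.05 (exact permutation p = 0.87).

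**Figure D3:**
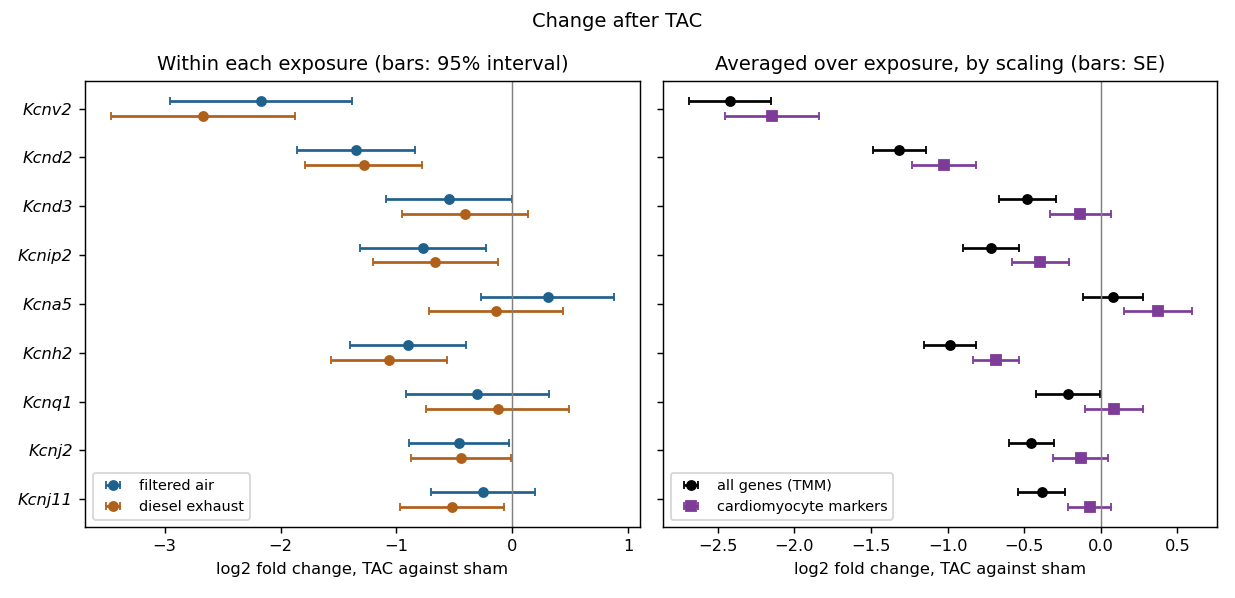
Log2 difference between TAC and sham for each member, within each exposure on the left (bars are 95% intervals) and averaged over exposure on the right (bars are SE) with libraries scaled on all genes or on cardiomyocyte markers. Kcnv2 is at -2.17 in air and -2.67 in diesel. The intervals of Kcna5 and Kcnq1 include 0 in both exposures, as do those of Kcnd3 in diesel and of Kcnj11 in air. Cardiomyocyte scaling shifts each member to the right.

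Read as separation of libraries rather than as calls, 4 of 9 members did not overlap between sham and TAC in air and were lower (Kcnd2, Kcnv2, Kcnh2 and Kcnj2), where 7.57% of all genes did so. In diesel 5 of 9 did so (Kcnd2, Kcnip2, Kcnv2, Kcnh2 and Kcnj11), against 11.2% of all genes. Over both exposures 3 of 9 did so (Kcnd2, Kcnv2 and Kcnh2), against 2.13%.

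Because cardiomyocyte markers were lower after TAC, the libraries were also scaled to the geometric mean of the 15 ventricular cardiomyocyte markers. This moved the median log2 difference of all genes to 0.26 in air, 0.41 in diesel and 0.34 on average. On that scale Kcnv2 fell by 2.15 ± 0.31 (4.43-fold lower, adjusted p = 1.08e-04), Kcnd2 by 1.03 ± 0.21 (adjusted p = 0.00285) and Kcnh2 by 0.68 ± 0.15 (adjusted p = 0.00495) on average. Kcnip2 had a difference of -0.39 ± 0.19 and no longer passed (adjusted p = 0.145). Within an exposure Kcnv2 kept its call (adjusted p = 0.0307 in air and 0.00366 in diesel), whereas Kcnd2, still 2.24-fold lower in air and 1.85-fold lower in diesel, lost it in both (0.0710 and 0.0748). Kcnh2, still 1.59-fold lower in diesel, lost its call there (0.0679).

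Diesel exposure before birth was not shown to change any member. With the edgeR test 0 of 9 members passed for diesel against air in sham hearts, in TAC hearts, averaged over surgery, or for the interaction of exposure and surgery, where 0% of all genes were called in each. At an unadjusted p below 0.05 the number of members was again 0 in each comparison. Of all genes, 3.69% in sham (503), 1.87% in TAC (255), 3.32% on average (452) and 2.4% in the interaction (327) reached that level. At shares this low, 0 of 9 does not set the members apart. DESeq2 called 0 members and limma-voom called 0 in these comparisons. Averaged over surgery, the log2 difference ran from -0.26 ± 0.15 for Kcnj2 (95% interval -0.56 to 0.05) to 0.0041 ± 0.21 for Kcnq1 (-0.43 to 0.44). For Kcnv2 it was -0.18 ± 0.26 (-0.73 to 0.36) and for Kcnd2 -0.03 ± 0.17 (-0.39 to 0.32). The interaction of Kcnv2 was -0.50 ± 0.53 (-1.60 to 0.59), and this interval does not exclude a fall of more than 2-fold greater size in diesel than in air.

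Levels of different genes were compared per kilobase of exon, taking the union of annotated exons, which understates genes that use few of them. In air sham the order was Kcnj11 (31.5 CPM per kilobase), Kcnip2 (18.9), Kcnh2 (13.8), Kcnj2 (12.8), Kcnq1 (7.60), Kcna5 (6.36), Kcnd2 (6.17), Kcnv2 (3.09) and Kcnd3 (2.22). The libraries of neighbours in that order overlapped for Kcnip2 and Kcnh2, Kcnh2 and Kcnj2, Kcnq1 and Kcna5, Kcna5 and Kcnd2, and Kcnv2 and Kcnd3. After TAC Kcnv2 was the least abundant of the 9, at 0.678 CPM per kilobase in air and 0.492 in diesel. Kcnd2 stayed above Kcnd3 per kilobase, at 2.42 against 1.52 in air TAC, from 6.17 against 2.22 in air sham.

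**Figure D4:**
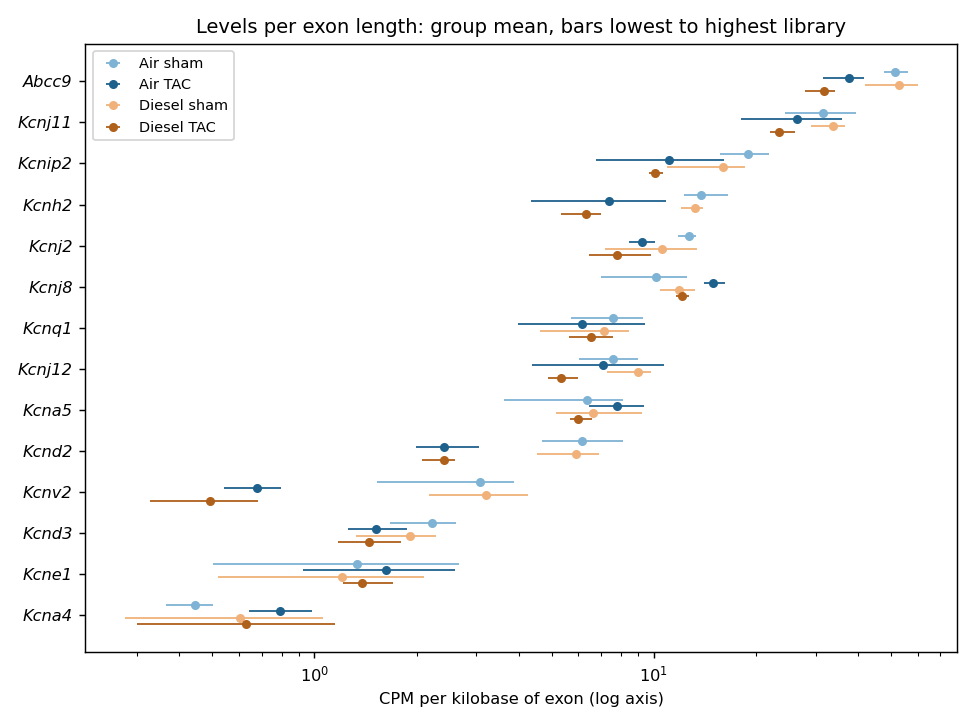
Level per kilobase of exon (CPM per kilobase, log axis) of the 9 members and 5 partner subunits in the 4 groups; points are group means and bars run from the lowest to the highest library. Kcnj11 is the highest member, and Kcnv2 drops from 3.09 in air sham to 0.678 in air TAC.

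Of 66 other potassium channel genes 32 were expressed enough to test, and the list was described by its counts. In air 0 of 32 passed with edgeR, DESeq2 or limma-voom, and 8 (6 lower, 2 higher) had an unadjusted edgeR p below 0.05, a level that 11.1% of all genes reached. In diesel, where 1.49% of all genes were called lower, 3 of the 32 fell: Abcc9, Kcnj5 (Kir3.4, with Kcnj3 the pore of the acetylcholine-gated channel; -0.80 ± 0.21, adjusted p = 0.0347) and Kcnk3 (the background leak channel TASK-1; -0.85 ± 0.21, 0.0260). These diesel calls were each lost in some fits without 1 diesel library: Abcc9 in 5 (highest adjusted p 0.143), Kcnj5 in 4 (0.171) and Kcnk3 in 3 (0.142). On average 6 of 32 fell, against 3.91% of all genes, and 0 rose, against 4.1%. At an unadjusted edgeR p below 0.05 there were 14 of the 32, 3 of them higher and the rest lower, where 21.6% of all genes reached that level. The 6 were Abcc9, Kcnj5 (-0.72 ± 0.15, 0.00311), Kcnk3 (-0.67 ± 0.15, 0.00672), Kcnn2 (the calcium-activated channel SK2; -1.10 ± 0.28, 0.0180), Kcnj3 (-1.12 ± 0.28, 0.0263) and Kcng2 (Kv6.2, like Kcnv2 a silent modifier subunit; -0.52 ± 0.16, 0.0410). Their median over the 32 genes was -0.19, against 0.0039 over all genes and -0.48 over the members. Kcna4 (Kv1.4, the slow transient outward pore) had an averaged difference of 0.43 ± 0.39 and did not pass. With cardiomyocyte scaling the split became 1 lower and 2 higher: only Kcnj3 of these 6 genes passed (adjusted p = 0.0100), and Kcnj8 and Kcnt2 (a sodium-activated channel) were called higher. On that scale 1778 of all 13626 genes were called higher and 100 (0.734%) lower, so the 2 higher calls are not particular to these channels. Kcnt2, named after its values were seen, was also called higher with DESeq2. Kcng2 was called in 3 of the 12 fits without a library (highest adjusted p 0.126, without air TAC 2), Kcnj3 in 5 (0.0746, without diesel TAC 3), and the other 4 genes in all 12.

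Among 18 regulators and anchors of these channels, 2 fell on average, beside 3.91% of all genes, and 0 rose, beside 4.1%. At an unadjusted edgeR p below 0.05 there were 5 of the 18, 0 of them higher, where 21.6% of all genes reached that level. Klf15, a Krüppel-like factor known to activate Kcnip2 transcription in the mouse heart, measured 41.1 ± 7.68 CPM in air sham, 28.8 ± 6.69 in air TAC, 53.2 ± 7.09 in diesel sham and 26.0 ± 4.41 in diesel TAC (SD, n = 3). It fell by 0.77 ± 0.15 on average (adjusted p = 0.00177) and by 1.03 ± 0.21 in diesel (0.00649, or 0.0569 without diesel TAC 3). Tbx5, a T-box factor of the heart and its conduction system, fell by 0.71 ± 0.20 on average (0.0319) and was called in 4 of the 12 fits without a library (highest adjusted p 0.0992, without air TAC 2). With cardiomyocyte scaling neither passed on average (Klf15 -0.46, adjusted p = 0.0709; Tbx5 -0.39, 0.185), nor did Klf15 in diesel (-0.63, 0.119).

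The genes most like each member over the 12 libraries were ranked by the root mean square difference of log2 CPM, each gene centred on its own mean, among 9846 candidates. This is a description, since the libraries share their groups and their depth. For Kcnv2 they were Cenpf (0.39), Pla2g5 (0.52) and Ces1d (0.57), and the nearest member, Kcnd2, was at 0.62. The nearest gene was Scara5 (0.26) for Kcnd2, Clasp1 (0.14) for Kcnd3, Dhdh (0.18) for Kcnip2, Micos10 (0.18) for Kcna5, Efnb3 (0.12) for Kcnh2, Coa8 (0.17) for Kcnq1, Pln (0.13) for Kcnj2 and Nudt3 (0.08) for Kcnj11.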

How the data were processed

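RNA of 12 mouse hearts was depleted of ribosomal RNA and sequenced on an Ion semiconductor instrument with 4 samples per run, per the labels' protocols. The authors deposited raw counts per gene, made with cutadapt 1.6, Subread 1.4.2 and featureCounts on mm10, per the submitters' processing notes; no source used here gives the strand setting or the treatment of multi-mapping reads. Totals per library were 5534685 to 13265816 counts; precision is limited by them and by 3 animals per group. Symbols were matched by gene number (25275 of 27179 genes). Genes passing filterByExpr (minimum 10 counts) were scaled by TMM and fitted with edgeR 4.0.16 (robust quasi-likelihood, R 4.3.3), all 12 libraries, 1 mean per group; p-values were adjusted over 13626 genes. Ratios used counts plus 0.5 and exact permutation, adjusted over 5 ratios, of which 1 is not reported here. The fit was checked on simulated data with the same spread for every gene and no exposure effect. That check covers the working of the code and does not test the calls made here. DESeq2 1.42.0, limma-voom (limma 3.58.1), other scalings, no filter and leaving out each library were the alternatives. The members and gene lists (other potassium channels, regulators, cell type markers) were chosen with earlier results of these data known. All members are named; up to 10 other listed genes are named if called and averaging 1 CPM or more, with 5 partner subunits whatever their result, and likeness used genes of at least 5 CPM. Of the other marker lists, macrophages had 3 of 10 genes called higher in the averaged TAC comparison, smooth muscle and pericytes 2 higher and 1 lower of 10, and atrial cardiomyocytes 1 of 5 tested higher. The median log2 difference was 0.13 for endothelium and -0.14 for Schwann cells and neurons, with no gene called by edgeR.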

Additional observations from a re-analysis of the deposited data

How the results depend on the processing

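Of 684 member values recomputed under an alternative, 636 kept their direction and their side of the threshold, 16 lost the call, 9 gained it and 23 changed sign, of which 0 were called values. These values cover the TAC comparisons, diesel against air averaged over surgery and, for Kcnv2 only, the interaction. Most of them recompute differences that were not called in the main fit, and only a called difference can lose its call. Within air 1 member passed with limma-voom and 1 with cardiomyocyte scaling, and 0 to 3 passed without 1 library; within diesel 1 passed with cardiomyocyte scaling. With that scaling the log2 difference between TAC and sham became 0.028 for Kcnd3, 0.26 for Kcna5 and 0.29 for Kcnq1 in diesel and 0.089 for Kcnq1 on average, and that of diesel against air averaged over surgery became 0.020 for Kcnd2 and 0.040 for Kcnj11. Without 1 library, the TAC difference ran from -0.36 to 0.0043 for Kcnq1 in diesel, from -0.30 to 0.16 for Kcna5 in diesel and from -0.067 to 0.23 for Kcna5 on average. The averaged diesel difference ran from -0.12 to 0.10 for Kcnd2, -0.14 to 0.11 for Kcnj11, -0.11 to 0.24 for Kcnq1 and -0.28 to 0.050 for Kcnh2. The averaged log2 ratio difference ran from -0.998 to -0.634 for Kcnd2 to Kcnd3, -0.92 to -0.64 for Kcnh2 to Kcnq1 and -0.19 to 0.11 for Kcnj2 to Kcnj11. Over all genes 113 were called in air, against 250 with DESeq2, 247 without the filter and 74 with limma-voom. In diesel 442 were called, against 668 with DESeq2 and 727 with cardiomyocyte scaling; on average 1091 and 1878. Without 1 library the number called ran from 39 (without air TAC 2) to 143 in air, from 188 (without diesel TAC 3) to 530 in diesel and from 631 (without air TAC 2) to 1213 on average. The share of all genes called lower, set beside the members above, then ran from 0.0356% to 0.342%, from 0.399% to 1.90% and from 2.03% to 4.44%. Cardiomyocyte scaling turned the split of higher and lower calls from 83 and 30 to 80 and 7 in air, from 239 and 203 to 694 and 33 in diesel and from 558 and 533 to 1778 and 100 on average. The cause of these changes was not tested. No paired analysis was possible because sample numbers in the labels are never shared between groups and litter is not given. Effects of diesel exposure on a member smaller than the intervals given were not detectable with 3 animals per group.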
